A study of Oncorhynchus mykiss with 48 samples.

Results

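Ageing of the liver was followed here in the F1 Control trout of a study on bisphenol A, by RNA sequencing of 4 fish at 365 days post-fertilization (dpf) and 4 fish at 140 dpf. These 8 fish were all the fish with the treatment Control and the generation F1 among the 48 rainbow trout (Oncorhynchus mykiss) of the series, and each was killed for its liver, so that the ages hold different fish. The other fish were F1 fish grown from eggs loaded with 4 ng (BPA4) or 40 ng (BPA40) of bisphenol A and sampled at the same ages, and F2 fish of the 3 lineages sampled at 365 and 112 dpf. For the younger F2 fish the sample titles give 140 dpf, but their other labels and the study's methods say 112 dpf, which is used here. The F1 Control eggs, pooled from several females and fertilized with pooled milt, had been kept in ovarian fluid that held only the ethanol vehicle, with 0 ng of bisphenol A per egg. The fish of both ages were fasted before sampling. The F1 fish of a treatment had been reared in 3 tanks, so that at least 2 of the 4 fish of an age shared a tank, and the labels name no tank, sex or sequencing run for a fish.

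The liver of a fish makes most of the proteins of the blood plasma, stores glycogen and lipid, and is the main source of circulating insulin-like growth factor. In egg-laying fish it also makes the yolk and egg-envelope proteins of maturing females under oestrogen. The fish of 140 dpf were juveniles and those of 365 dpf post-juveniles in the terms of the study, and the comparison asks which liver transcripts differ between these stages when no bisphenol A had been in the egg. The tables name genes by the identifiers of the trout genome annotation, and 0 of the 46585 identifiers matched the reference gene table used here. No gene is therefore given a function, and the defining transcripts of hepatocytes, blood cells or pancreas could not be looked up to check the tissue. In whole liver, fewer cells of a type and less RNA per cell cannot be told apart.

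Of the 46585 genes, 15 were left out because the table of either F1 age carried a mark for them (HIDATA), with the marked values listed at 0. The mark fell on Control fish for 12 of them, and at both ages for 8. Where they were not marked these genes held fragments, and with them the totals were 12718390 to 17395299 fragments per fish. The mark is set where a gene holds too many fragments to process, and every share below is a share of the fragments outside these 15 genes. The remaining 46570 genes took between 11981967 and 16431501 fragments (sequenced pieces of cDNA) per fish, with a median of 13514568.5 at 365 dpf and 12101703.5 at 140 dpf. No fragment fell on 7920 of these genes in any of the 8 fish, and 16833 had too few for a test, which left 21817 genes. Rainbow trout carries many near-identical gene copies from a genome duplication in the salmonid ancestor. The authors' software shared out fragments that matched several copies when FPKM was calculated. How such fragments entered the raw counts is not stated, so that the values of such copies are uncertain. The age, the sampling date and the table from which the counts were taken changed together and cannot be told apart.

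The 2 ages separated along the axis of largest variance among the fish. The first principal component of log2 CPM (counts scaled to a common library total) took 61.4% of the variance, with scores of 67.89 to 98.72 at 365 dpf and -122.4 to -59.68 at 140 dpf. The second took 12.7% and was led by replicate 2 of 365 dpf, at -77.03. Spearman's correlation of gene levels between fish of the same age lay between 0.8873 and 0.9461 in the 6 pairs of 365 dpf, and between 0.932 and 0.9642 in the 6 pairs of 140 dpf. It lay between 0.7604 and 0.8699 in the 16 pairs of different age, across 21817 genes that are not independent of each other. Every pair of the same age was thus more alike than every pair of different age.

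More genes were detected in each liver of 365 dpf than in any of 140 dpf. After the fragments of each fish were thinned to the lowest total, 11981967, the genes that kept 5 fragments or more numbered 26276, 26347, 25017 and 25072 in the fish of 365 dpf, and 23388, 22761, 23777 and 21429 in the fish of 140 dpf. The ages did not overlap, and replicate 3 of 140 dpf was the lowest of all. The mean was 25678 ± 732.4 genes at 365 dpf and 22838.8 ± 1029 at 140 dpf (SD, n = 4 each), a difference of 2839 genes. The exact permutation test (two-sided, over the 70 splits of 8 fish) gave p = 0.02857, the smallest it can give, and 0.1714 after Benjamini-Hochberg adjustment over the 6 measures per fish tested here. Without thinning the mean was 26312 genes at 365 dpf and 22953.5 at 140 dpf.

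Genes detected at only one age were more numerous at 365 dpf. At this depth 18637 genes were detected in all 8 fish, 22599 in every fish of 365 dpf and 19643 in every fish of 140 dpf. Of the genes, 727 were detected in 4 of 4 fish at 365 dpf and in 0 of 4 at 140 dpf, and 54 showed the opposite pattern. With a stricter rule on the unthinned counts, at least 20 fragments in each fish of one age and under 5 in each fish of the other, 59 genes were present at 365 dpf and 5 at 140 dpf. Those with at least 5 fragments in each fish of one age and no fragment in any fish of the other numbered 17 at 365 dpf and 2 at 140 dpf. A gene without fragments may still be transcribed below this depth.

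Outside the genes with the HIDATA mark, the concentration of fragments in the leading genes differed by less than the spread between fish. The marked genes are missing here, so the concentration of the whole transcriptome is not given. With only the marks of Control fish left out, the 10 leading genes averaged 11.91% at 365 dpf and 12.46% at 140 dpf. The 10 genes with the most fragments in a fish took 9.603, 9.684, 10.85 and 10.98% of its fragments at 365 dpf, and 11.07, 11.41, 9.367 and 12.19% at 140 dpf. The ages overlapped, with means of 10.28 ± 0.738% at 365 dpf and 11.01 ± 1.19% at 140 dpf (SD, n = 4 each), exact permutation p = 0.3429. The 100 leading genes took 38.93, 38.69, 43.36 and 41.64% at 365 dpf, and 39.08, 40.32, 37.44 and 42.12% at 140 dpf (exact permutation p = 0.6286). The difference of their means was 0.913 percentage points, and the exact test left differences between -3.434 and 5.919 points open at a level of 97.1%. For the 1000 leading genes the means were 74.48 ± 1.242% at 365 dpf and 75.03 ± 1.597% at 140 dpf (SD, n = 4 each, exact permutation p = 0.6). Counting error was small beside this spread, since the widest 95% Wilson interval of a share was 0.056 percentage points. These intervals cover counting error only.

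The 2 measures that do not fix the number of leading genes gave the same picture. The number of genes that together held 50% of the fragments was 198, 198, 151 and 167 at 365 dpf, and 196, 181, 222 and 164 at 140 dpf, with means of 178.5 at 365 dpf and 190.8 at 140 dpf (exact permutation p = 0.5714, n = 4 each). The effective number of genes, which is the exponential of the Shannon entropy of the shares and would be 46570 if every gene took the same share, averaged 1761 ± 176.2 at 365 dpf and 1686 ± 196.4 at 140 dpf (SD, n = 4 each). The exact permutation test gave p = 0.6 and left differences between -360.7 and 469.6 genes open. After adjustment over the 6 measures, all 5 measures of concentration had a p of 0.6286. The number of genes detected had the smallest p that the exact permutation test can give, and an adjusted p of 0.1714. With 4 fish per age, a single measure at that smallest p cannot pass after adjustment over 6, however far the ages lie apart. The adjusted p therefore does not decide on the number of genes detected.

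**Figure D1:**
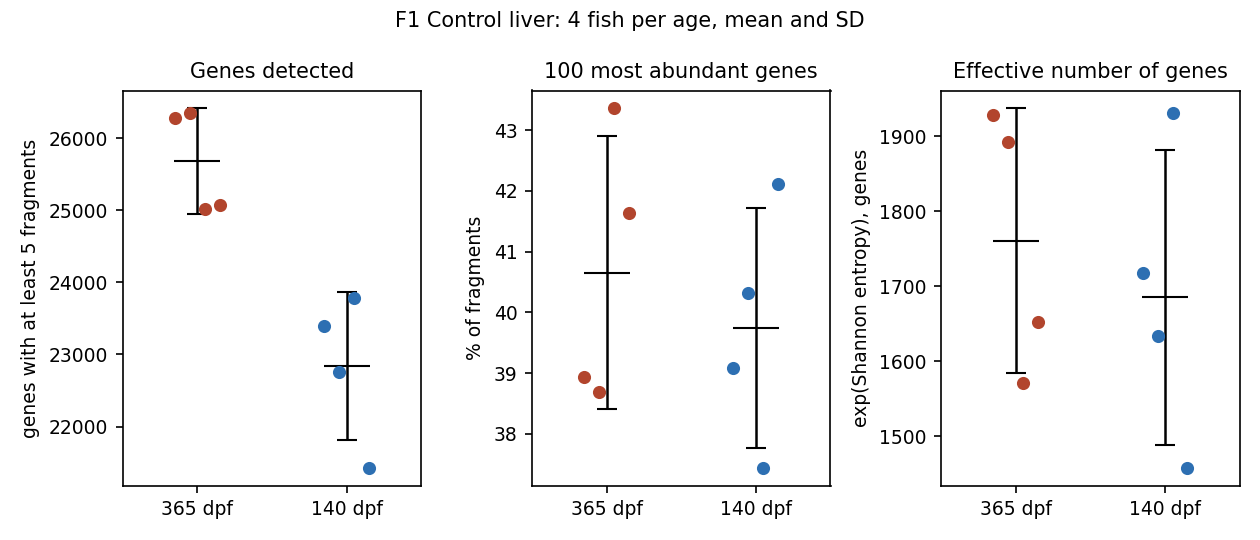
Genes with at least 5 fragments at equal depth (left), the percentage of fragments in the 100 leading genes (middle) and the effective number of genes (right) in each F1 Control fish. Points are fish, bars the mean and SD of 4 fish, and the vertical axes do not start at 0. Detected genes lie between 25017 and 26347 at 365 dpf and between 21429 and 23777 at 140 dpf, while the other measures overlap.

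The genes that made up this leading part did change. Of the 100 genes with the largest mean share at 365 dpf, 73 were also among the 100 largest at 140 dpf. Of the 10 largest 3 were shared, but fish of the same age were not compared for the 10 largest. Between individual fish, the lists of the 100 leading genes shared 76 to 87 genes in pairs of 365 dpf and 85 to 89 in pairs of 140 dpf, but 65 to 73 in pairs of different age. The range for different ages did not reach that for the same age. The list of 365 dpf took 39.7 ± 1.99% of the fragments at 365 dpf and 34.9 ± 1.68% at 140 dpf, and the list of 140 dpf took 35.2 ± 1.37% at 365 dpf and 39.3 ± 1.64% at 140 dpf (SD, n = 4 each). Both lists were chosen on these fish, so the shares are given as a description. Summed over genes, the mean shares shifted by 23.7 percentage points between the ages, and 60 genes made up 50% of the gains and 89 genes 50% of the losses.

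Differences with age were widespread. In edgeR's quasi-likelihood test on the fragment counts, 9956 of 21817 genes differed between 365 and 140 dpf at an adjusted p under 0.05, which is 45.6% of the genes tested. Of these, 5535 rose (25.4%) and 4421 fell (20.3%) at 365 dpf. At an unadjusted p under 0.05 there were 11893 genes (54.5%). The split by direction depended on the scaling. It was 55.6% rising with TMM scaling, and 65.7% with upper-quartile scaling or 66.9% with the library total alone, which moved the median log2 fold change of all genes to 0.171 and 0.187 from the 0.0279 with TMM. Over all genes tested, more rose than fell in each of these 3 settings. This direction depended on which genes were counted. By the calls with TMM scaling, 2694 rose and 3930 fell among the 15651 genes with 10 fragments or more in each fish. When those genes were scaled and tested alone, 3421 rose and 2564 fell. The levels of the 2 ages did not overlap for 9639 of the 21817 genes (44.2%). The fish of 365 dpf were higher for 5207 (23.9%) and lower for 4432 (20.3%). Among the called genes, 4838 of the 5535 rising and 3879 of the 4421 falling had ages that did not overlap.

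The called rises were larger than the called falls. The median log2 fold change of the rising genes was 1.52 (quartiles 1.11 and 2.06), and that of the falling genes was -0.946 (quartiles -1.29 and -0.722). A change of at least 1 on the log2 scale was reached by 4540 rising genes (82.0%) and 1964 falling genes (44.4%), and one of at least 3 by 397 rising and 66 falling genes. Only 5 rising and 2 falling genes had no fragment in any fish of one age, and with these held at the bound set by 3 fragments over the 4 fish the medians were again 1.52 and -0.946. The rising genes were lower in level, with a median of 3.13 CPM over the 8 fish against 14.1 CPM for the falling genes. Among called genes with 10 fragments or more in each fish, the median was 1.18 for 2694 rising and -0.89 for 3930 falling genes. With the scaling by library total the median log2 fold change of all genes is higher by the shift given above, which was not removed from these medians.

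Rising genes made up a larger share of the low genes tested than of those at 10 to 1000 CPM. Among the 1500 tested genes with a mean under 1 CPM over the 8 fish, 37.5% rose and 4.13% fell. Between 1 and 10 CPM, 31.0% of 12574 genes rose and 13.1% fell. Between 10 and 100 CPM, where 6527 genes lay, 13.9% rose and 34.5% fell, and between 100 and 1000 CPM 12.8% of 1044 genes rose and 39.3% fell. The 172 genes of 1000 CPM or more were divided into 19.2% rising and 26.2% falling. The median log2 fold change of these 5 bands, called or not, was 0.78, 0.29, -0.329, -0.445 and -0.232. Adding the shift of the median over all genes with library-total scaling to each band gives 0.939, 0.449, -0.17, -0.286 and -0.0734. The band medians were not taken from that fit, and its shift differs between genes. A low gene could pass the filter through the age at which it was high. The 15651 genes with 10 fragments or more in each of the 8 fish were therefore described too, which was added after seeing the data. Only 1 of them had a mean under 1 CPM, so the contrast in the lowest band could not be checked in this way. Among the 15651 genes, 2694 of the called genes rose and 3930 fell. Between 1 and 10 CPM 20.9% of 7995 rose and 15.4% fell. Between 100 and 1000 CPM 12.6% of 1040 rose and 39.4% fell. When these genes were scaled and tested alone, 3421 rose and 2564 fell, so that the more frequent direction among them turned with the scaling. In that fit 26.6% rose and 9.93% fell between 1 and 10 CPM, and 15.4% rose and 25.9% fell between 100 and 1000 CPM. Of the 171 genes of 1000 CPM or more, 21.1% rose and 17.5% fell, which also turned. CPM is not divided by gene length. The relative length of a gene, taken from its fragments per unit of FPKM, had a median of 0.932 for rising and 0.938 for falling genes, where the median tested gene is at about 1, and 29.9% of the 4364 shortest genes rose and 25.9% of the 4364 longest. The part of length in the result was not tested.

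**Figure D2:**
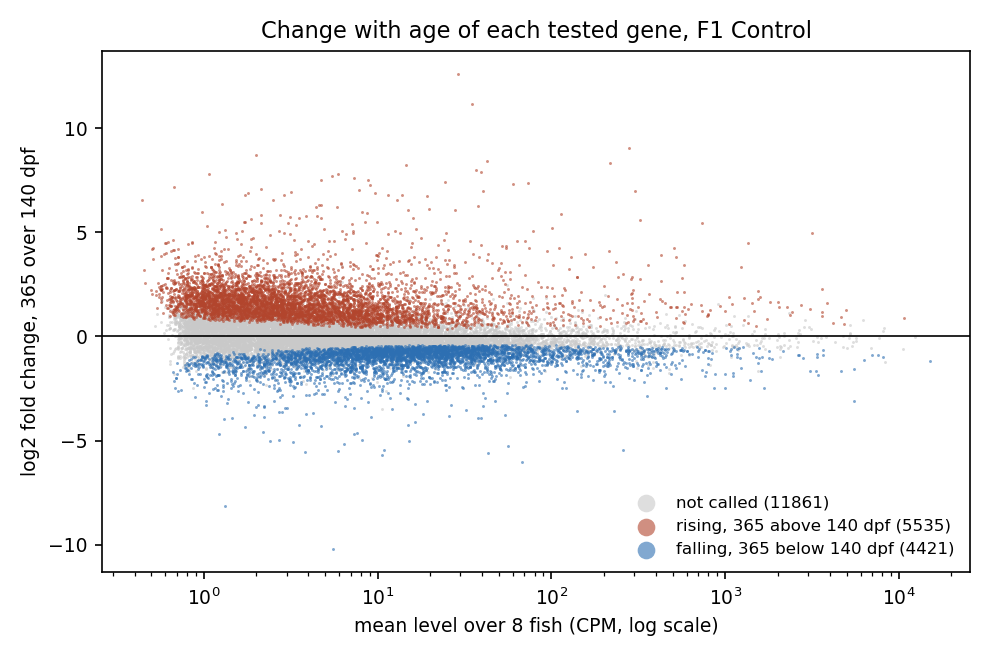
Log2 fold change (365 over 140 dpf) of each of the 21817 tested genes against its mean level over the 8 fish in CPM (log axis). Called rising genes (5535) and falling genes (4421) are coloured and genes not called (11861) are grey. Below 10 CPM coloured points lie mostly above 0, and from 10 to 1000 CPM mostly below.

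The called genes were 45.6% of the genes tested, and their part of the fragments was near that share. The called rising genes took 23.5, 22.2, 26.9 and 26.8% of the fragments in the fish of 365 dpf, and 9.14, 8.35, 9.32 and 6.94% in those of 140 dpf. The falling genes took 22.4, 23.8, 19.8 and 20.4% at 365 dpf, and 39.2, 40.4, 38.9 and 40.9% at 140 dpf. Genes not called took between 52.4 and 53.6% at 365 dpf and between 50.9 and 52.0% at 140 dpf. The sets were called on these counts, so that their shares describe the difference and are no test of it.

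**Figure D3:**
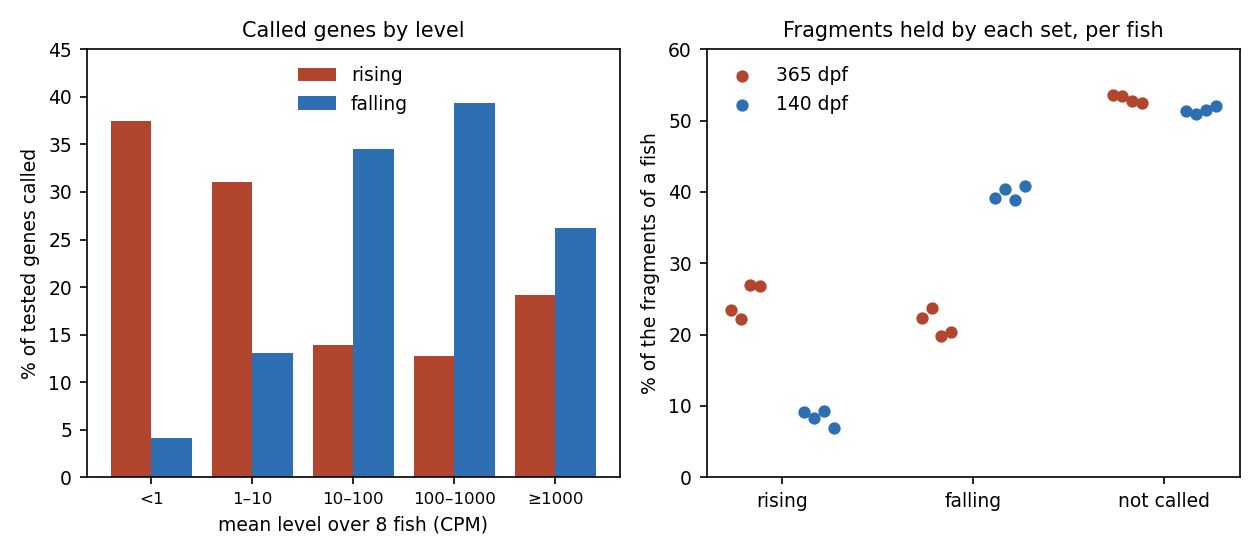
Left, percentage of tested genes called rising or falling with age, by mean level over the 8 fish in CPM. Right, percentage of the fragments of each fish (points) in the genes called rising, called falling or not called, at 365 and 140 dpf. Rising genes hold 22.2 to 26.9% at 365 dpf and 6.94 to 9.32% at 140 dpf, and falling genes 19.8 to 23.8% at 365 dpf and 38.9 to 40.9% at 140 dpf.

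Single genes are shown by a rule that took, among the called genes with non-overlapping ages and 10 fragments or more in each fish (2262 rising, 3476 falling), the gene of largest change and the gene with the highest mean CPM in each direction. The gene of largest rise was GSONMT00056804001. It had 92.31, 54.91, 1690 and 551.3 CPM at 365 dpf, and 3.91, 4.704, 7.485 and 2.728 CPM at 140 dpf. All fish of 365 dpf were above those of 140 dpf, but they differed among themselves, with replicate 2 by far the highest. Its log2 fold change was 6.98 ± 1.13 (SE), with an adjusted p of 0.00166 in edgeR's test, and 5.61 ± 0.795 without replicate 2 of 365 dpf, with an adjusted p of 0.00143. By mean share of fragments it was gene 256 at 365 dpf and gene 11001 at 140 dpf.

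The rising gene with the highest mean CPM was GSONMT00063041001. By mean share at 365 dpf it led all genes without the HIDATA mark, with 1.44% of the fragments, against 0.703% at 140 dpf. It had 9361, 10140, 17330 and 18610 CPM at 365 dpf, and 7092, 8248, 6702 and 7886 CPM at 140 dpf. Replicates 2 and 3 of 365 dpf were clearly higher than the other fish of that age, in which other genes had a higher CPM than this one. Per unit of length it was gene 18 at 365 dpf and gene 45 at 140 dpf, with 0.642 ± 0.207% of the summed FPKM at 365 dpf and 0.306 ± 0.0204% at 140 dpf (SD, n = 4 each). The log2 fold change was 0.89 ± 0.278 (SE), with an adjusted p of 0.0254 in edgeR's test. The call was weak, since it was lost on leaving out any of 5 of the 8 fish (replicate 0, 1 or 2 of 140 dpf, or replicate 2 or 3 of 365 dpf), with adjusted p-values of 0.0544 to 0.0712.

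The gene of largest fall was GSONMT00034424001. It had 4.409, 1.229, 0.9937 and 1.44 CPM at 365 dpf, from 14 to 80 fragments per fish, and 81.01, 219.2, 165.5 and 65.16 CPM at 140 dpf. Every fish of 365 dpf was far below every fish of 140 dpf. The log2 fold change was -6.01 ± 0.615 (SE), with an adjusted p of 0.000502 in edgeR's test, and -6.76 ± 0.553 without replicate 0 of 365 dpf, with an adjusted p of 0.000578. By share of fragments it was gene 16988 at 365 dpf and gene 1002 at 140 dpf.

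The falling gene with the highest mean CPM was GSONMT00072225001, which also had the highest mean CPM of all tested genes. It had 9713, 10960, 6824 and 9620 CPM at 365 dpf, and 16500, 25650, 13720 and 27970 CPM at 140 dpf. The ages did not overlap, and the fish of 140 dpf fell into a higher and a lower pair. The log2 fold change was -1.18 ± 0.295 (SE), with an adjusted p of 0.0101 in edgeR's test. It took 0.983% of the fragments at 365 dpf and 1.94% at 140 dpf, and of the summed FPKM 0.919 ± 0.178% at 365 dpf and 1.78 ± 0.439% at 140 dpf (SD, n = 4 each).

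**Figure D4:**
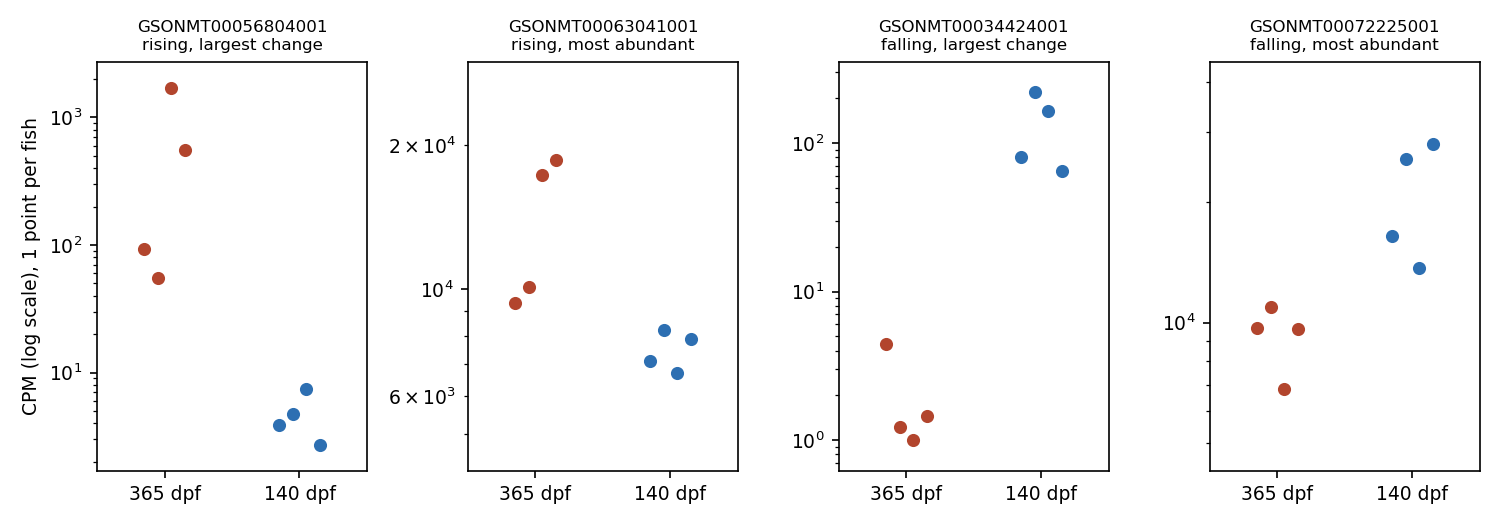
Level in CPM (log axis, each panel with its own range) of the 4 genes chosen by the rule in each F1 Control fish (points), at 365 and 140 dpf. The first gene spans 54.91 to 1690 CPM at 365 dpf and 2.728 to 7.485 CPM at 140 dpf, and no panel has overlapping ages.

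Among the 10 genes with the highest mean CPM, 1 rose, 3 fell and 6 were not called. The other 2 falling genes had log2 fold changes of -0.99 ± 0.262 and -0.90 ± 0.246 (SE), with adjusted p-values of 0.0131 and 0.0145 in edgeR's test. Of the 6 genes without a call, that of rank 5 had 6310, 1382, 9252 and 3145 CPM at 365 dpf and 16630, 3525, 7607 and 18730 CPM at 140 dpf, so that fish of the same age differed several-fold. That of rank 2 had 12180 ± 3063 CPM at 365 dpf and 12510 ± 2190 CPM at 140 dpf (SD, n = 4 each), with a log2 fold change of -0.04 ± 0.252 (SE). Among the 100 genes with the largest mean share, 19 rose, 23 fell and 58 were not called, so that 42.0% were called beside 45.6% of all tested genes.

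The spread between fish was similar at both ages by the median over genes, and higher at 365 dpf by other measures. Over 17808 genes with a mean of at least 1 CPM at each age, the median coefficient of variation was 23.2% at 365 dpf and 22.9% at 140 dpf, and 51.1% of the genes varied more at 365 dpf. The common biological coefficient of variation from edgeR was 34.36% at 365 dpf and 29.63% at 140 dpf. A coefficient above 100% was found for 184 genes at 365 dpf and 113 at 140 dpf. The equality of the spread was not tested.

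The genes called in F1 Control fish were then followed in fish that had not chosen them. Between 365 and 140 dpf, 5192 of 21806 genes (23.8%) were called in F1 BPA4 fish and 6547 of 22239 (29.4%) in F1 BPA40 fish. Of the genes rising in F1 Control, 5129 were tested in F1 BPA4, with a median log2 fold change of 0.985, and 5249 in F1 BPA40, with a median of 1.21. In F1 Control, on which they were chosen, the medians of these genes were 1.47 and 1.49. Over all genes tested in both groups of a pair, the medians were 0.0157 in F1 BPA4 and 0.0557 in F1 BPA40. In F1 BPA4, 2447 of the 5129 were called rising (47.7%, beside 13.4% of all genes) and 1 falling. In F1 BPA40, 2949 of the 5249 were called rising (56.2%, beside 17.2%) and 0 falling. Of the genes falling in F1 Control, 1727 of 4376 were called falling in F1 BPA4 (39.5%, beside 10.4%) and 2100 of 4383 in F1 BPA40 (47.9%, beside 12.3%), and 0 were called rising in either. The share of these falling genes below 0, called or not, was 97.2% in F1 BPA4, beside 49.2% of all genes. In F1 BPA40 it was 96.8%, beside 47.8%. Of the genes rising in F1 Control, 97.4% were above 0 in F1 BPA4 (beside 50.8%) and 97.1% in F1 BPA40 (beside 52.2%). All 3 F1 groups of an age come from the same table and sampling time, so that whatever went with the sampling went with all of them.

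A difference of the change with age between Control and BPA fish was tested as an interaction in all 24 F1 fish. For BPA40 minus Control, 0 of 24817 genes passed in edgeR's test (0.0%), 1500 had an unadjusted p under 0.05 (6.04%) and DESeq2 called 11. For BPA4 minus Control, 0 of 24817 genes passed in edgeR's test, 1559 had an unadjusted p under 0.05 (6.28%) and DESeq2 called 6. The smaller numbers of genes called in the BPA groups are therefore not shown to be a difference in ageing, and equal ageing is not shown either. For GSONMT00056804001, the log2 fold change was 2.89 ± 0.839 in F1 BPA4 and 4.20 ± 1.17 in F1 BPA40 (SE), with adjusted p-values of 0.0349 and 0.0269 in edgeR's test, and that of GSONMT00034424001 was -4.02 ± 0.938 in F1 BPA4 and -3.36 ± 0.842 in F1 BPA40, with adjusted p-values of 0.0177 and 0.0194. The other named genes were not called in either group. GSONMT00063041001 had log2 fold changes of 0.87 ± 0.302 in F1 BPA4 and 0.33 ± 0.266 in F1 BPA40 (SE), with adjusted p-values of 0.0584 and 0.357 in edgeR's test, and GSONMT00072225001 had -0.77 ± 0.464 in F1 BPA4 and -0.76 ± 0.394 in F1 BPA40, with adjusted p-values of 0.233 and 0.158.

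In F2 Control fish, sampled at 365 and 112 dpf, 13883 of 20445 genes were called (67.9%), of which 7725 rose (37.8%) and 6158 fell (30.1%). Of the genes rising in F1 Control, 4288 were tested there, and 3687 of them (86.0%) were called rising and 56 (1.31%) falling, with a median log2 fold change of 2.52. Of the falling genes, 4372 were tested, and 3055 (69.9%) were called falling and 153 (3.5%) rising, with a median of -1.3. In F1 Control, on which they were chosen, the rising and falling genes tested in F2 had medians of 1.4 and -0.94. The earlier age, 112 dpf by all labels but the titles, differs between the generations, and the values are set side by side with that limit.

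The difference of the change with age between the generations, F1 minus F2 Control, was called for 7381 of 24236 genes (30.5%), of which 3448 were above 0 and 3933 below. The split depended on the scaling, since with the library total alone 9007 genes were called, 1943 above 0 and 7064 below. With TMM scaling, 10315 genes (42.6%) had an unadjusted p under 0.05. All 56 genes called rising in F1 and falling in F2, and all 153 called the other way, were among the 7381. These genes were chosen on the same counts by opposite calls, so this describes them and is no test. GSONMT00034424001 had a log2 fold change of -0.85 ± 0.839 (SE) in F2 Control, and its difference between the generations was -5.06 ± 1.16, with an adjusted p of 0.00419 in edgeR's test. GSONMT00063041001 had -0.28 ± 0.34 in F2 Control and a difference of 1.28 ± 0.445, with an adjusted p of 0.0381. GSONMT00056804001 changed by 4.06 ± 0.442 in F2 Control, with an adjusted p of 3.43e-05, and its difference of 3.05 ± 1.14 had an adjusted p of 0.051. GSONMT00072225001 was marked as too abundant in an F2 table and was not tested there. Generation, sampling time and the earlier age cannot be told apart in this comparison.

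**Figure D5:**
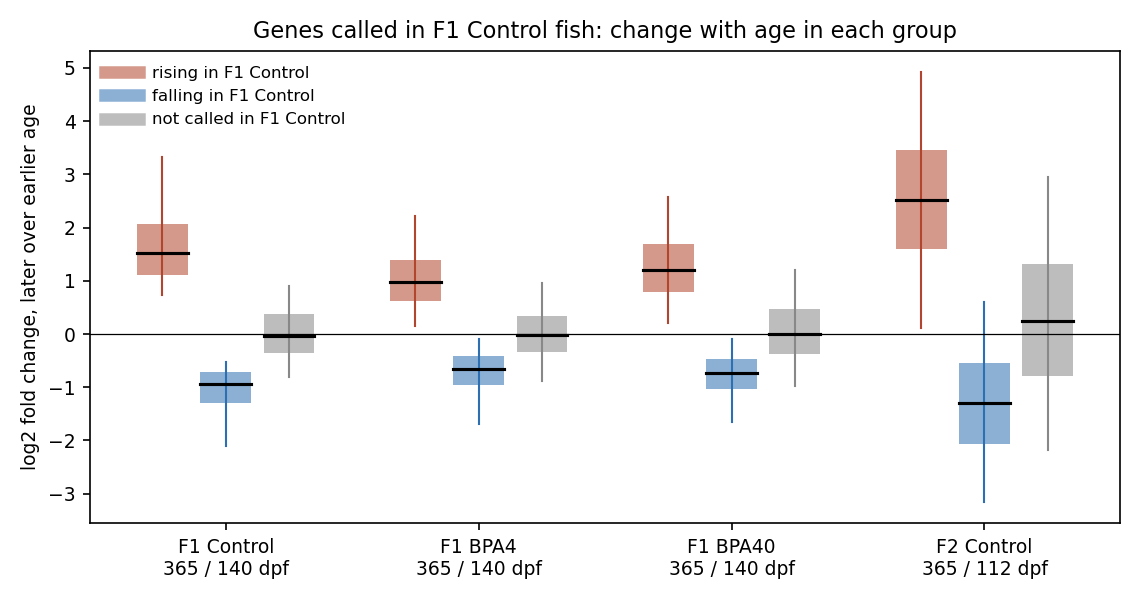
Log2 fold change, later over earlier age, in each of 4 groups for the genes called rising, called falling or not called in F1 Control. Black lines are medians, boxes quartiles and thin lines the 5th to 95th percentile of genes, and the F1 Control boxes show the values that chose the sets. The medians of the rising genes are 1.52 in F1 Control, 0.985 in F1 BPA4, 1.21 in F1 BPA40 and 2.52 in F2 Control. Each is over the genes tested in that group. The rising genes tested in F1 BPA4, F1 BPA40 and F2 Control have F1 Control medians of 1.47, 1.49 and 1.4.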

How the data were processed

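Liver RNA of 48 rainbow trout had been sequenced as paired ends from stranded libraries. The authors mapped reads with TopHat 2.1.0 and Bowtie 2.2.6 to the sequenced rainbow trout genome. They calculated FPKM with Cufflinks, sharing out reads that matched several places in that step. They deposited 4 Cuffdiff tables, 1 for each generation and age, with raw fragment counts per gene and fish (not normalized) and FPKM (fragments per length and depth, scaled by Cuffdiff within a table). FPKM was used for the shares per length and for relative length (genes with at least 10 fragments). The other 10 columns of values per fish (8 of scaled fragments and 2 of FPKM) were not used.

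Groups came from the sample labels. Counts were joined by gene identifier, and genes marked HIDATA in either F1 table were left out. Fragments per fish in the series ranged from 6788947 to 19528494. The main test was edgeR 4.0.16 (quasi-likelihood, TMM, filterByExpr) under R 4.3.3 in the 8 fish, with Benjamini-Hochberg adjustment over all genes tested and a threshold of 0.05. Interactions were fitted in 24 F1 fish or 16 Control fish. CPM used TMM-scaled totals. The SE given with a fold change of edgeR is the absolute log2 fold change divided by the square root of the F statistic of its test. It is thus derived from the same statistic as the p-value and is not a separate estimate. A gene counted as detected from 5 fragments after thinning with a fixed seed. Tests of 1 value per fish were exact permutation tests of the difference of means. The interval given with them holds the differences that this test does not reject. P-values cover the spread between these fish, some of which shared a tank. Fits were tested on simulated data with few genes changed, in random directions, so that the scaling and the split by direction were not tested. Pairs of fish of 1 age were checked for duplicate libraries, and chi-square per degree of freedom was 23.8 or more, where sampling noise gives about 1.

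Alternatives were DESeq2 1.42.0, limma-voom (limma 3.58.1), other scalings and filters, all 24 F1 fish, the replicate number as a block, HIDATA marks of Control only, other detection limits, FPKM shares and leaving out each fish. The bias-adjusted form of edgeR's test was added after seeing the data. The group and the tests were chosen with earlier results of these data known. Named genes were, in each direction, the gene of largest change and the gene with the highest mean CPM among called genes with non-overlapping ages and 10 fragments or more in each fish. Planned gene lists and cell type markers were not used, since 0 identifiers could be paired with names. Sequences are not given for the same reason.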

Additional observations from a re-analysis of the deposited data

Results flagged for a closer look

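In 34 sets of 4 fish of one age, a fish far from the other 3 was looked for with Dixon's ratio, which chance passes in about 1 of 20 sets. Replicate 2 of 140 dpf had 13098572 fragments, above the other 3 fish of that age, which lay close together at 11981967 to 12132026. Its total lay within the range of the fish of 365 dpf, 12627044 to 16431501. GSONMT00034424001 stood at 4.409 CPM in replicate 0 of 365 dpf, above the 0.9937 to 1.44 CPM of the other fish of that age and below every fish of 140 dpf.

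The change with age differed between the generations (F1 minus F2 Control) for 7381 genes, by a test of the difference itself. Among the genes named, the difference was called for GSONMT00034424001, at -5.06 on the log2 scale, and for GSONMT00063041001, at 1.28. The earlier age was 140 dpf in F1 and 112 dpf in F2 (140 dpf in the F2 titles), which cannot be told apart from the generation.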

How the results depend on the processing

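No called gene changed its direction in any of the 19 alternatives of the age test. Of these, 18 gave between 8194 and 11487 calls, where the main test gave 9956, and DESeq2 kept 9849 of the same genes. With a minimum of 10 fragments in each fish, 5985 genes were called (3421 rising, 2564 falling) of the 15651 tested. Of these 15651 genes, 6624 had been called before, and 5258 of them kept their call. Fewer genes were tested, and scaling on these genes alone moved the median log2 fold change over them to 0.0147, where the main test had -0.179. Leaving out each fish in turn gave 8194 to 10001 calls (4716 to 5575 rising, 3478 to 4492 falling). The replicate number as a block gave 8704 calls. Deviations from the mean of an age had correlations of -0.0889 to 0.0869 between fish of the same number. For fish of different number these ranged from -0.164 to 0.178. The labels do not say whether fish of the same number shared anything else. Under the block GSONMT00063041001 lost its call (log2 fold change 0.83, adjusted p = 0.0681 in edgeR's test, where the alternatives without a fish left out ranged from 0.00524 to 0.0681). The other 3 named genes kept their calls in all 19 alternatives, with log2 fold changes of 5.61 to 7.35 for GSONMT00056804001 (5.86 with limma-voom), -6.76 to -5.68 for GSONMT00034424001 and -1.36 to -0.97 for GSONMT00072225001.

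The interaction with BPA40 was called for 0 genes, 11 with DESeq2 and 0 to 1 on leaving out a fish. That with BPA4 was called for 0 genes, 6 with DESeq2, 1 without normalization, 1 with the block and 0 to 2 on leaving out a fish. That with generation had 7381 calls of 24236 genes, 8353 with DESeq2, 6464 with the block and 6019 to 8939 on leaving out a fish. Without normalization it had 9007 calls (1943 above 0, 7064 below). A minimum of 10 fragments in each fish gave 5035 calls of the 11956 genes tested. With that minimum, 3317 of 15922 genes tested were called with age in F1 BPA4, 3775 of 15941 in F1 BPA40 and 8025 of 12634 in F2 Control. The main tests called 5192 of 21806, 6547 of 22239 and 13883 of 20445, so that the number of genes tested differs too. What lowered the counts was not tested.

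The difference in detected genes lay between 2369 and 3152 on leaving out a fish, and at 1765 with 1 fragment and 2945 with 10 as the limit. Differences in concentration stayed under detection throughout, and 3 turned their sign. The share of the 10 leading genes differed by 0.0675 percentage points without the gene with the most fragments, and by -1.28 to -0.336 on leaving out a fish. With shares of FPKM it differed by -0.943 points, that of the 100 leading genes by 0.213 and that of the 1000 by -1.544. The exact permutation p was 0.1714, 0.8571 and 0.1429. On leaving out a fish, the share of the 1000 leading genes differed by -1.21 to 0.087 points, and the effective number by -0.525 to 157.2 genes. Both turned their sign without replicate 3 of 140 dpf. The cause was not tested. Genes in low numbers of fragments limit detection, and 4 fish per age limit every exact test to p = 0.0286 or more.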
